A study of Mus musculus with 6 samples.

Results

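The 36 genes described here mark the cells that line blood and lymph vessels. They, and the lists read beside them, were chosen by symbol, with earlier results of these data known. The 36 comprise 13 genes of junctions and surface adhesion, 8 receptors for growth factors and lipids, 5 transcription factors, 6 secreted or cytoplasmic products and 4 genes of lymphatic endothelium. All 36 were among the 24452 gene symbols measured. RNA-seq was run on whole small intestine of suckling C57BL/6 mice on postnatal day 14. Of the 6 libraries, 3 were labelled wild type and 3 were labelled with the genotype Erk1/2 -/-, a loss of the ERK kinases, which carry growth factor signals from receptors to the nucleus. Which cells lost the kinases, and through which alleles or Cre driver, is not given in the sources used here.

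Endothelial cells hold together through the cadherin encoded by Cdh5 and sense vascular endothelial growth factor (VEGF) through the receptors encoded by Flt1, Kdr and Flt4. ERK is one of the kinases that act below these receptors. In the intestine each villus holds a capillary net and a central lymph vessel, the lacteal, which takes up dietary fat. Erg and the related Sox7, Sox17 and Sox18 encode transcription factors that keep the endothelial programme on, and Prox1 encodes the factor that sets lymphatic identity.

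Values are normalised counts, given below in the order of replicates 1, 2 and 3 of each group, and summed to between 13641468 and 17153570 per library. Mapk3, a targeted gene, was not detectably lower in the libraries labelled knockout. It had 3142, 2788 and 2004 in the wild type libraries, in replicate order, against 3363, 2280 and 2734 in those labelled knockout. The groups overlapped, and their log2 difference was 0.09 ± 0.22 (SE; limma adjusted p = 0.819). These are totals over the gene, with no values for single exons, and they do not bear out the labels, so each direction below refers to the labels and not to a measured loss of the kinase. Other features also set libraries apart. By Xist and Ddx3y, wild type 1, wild type 2 and labelled knockout 1 came from males and the other 3 from females. Onecut2, a gene of the proximal intestine, had 200 in wild type 3 and 75 in labelled knockout 1, and at least 1835 in each of the others. Proximal genes Adh6a (133 and 335), Gata4 (1717 and 1303) and Cyp4v3 (189 and 296) were also lowest in these 2 libraries. Proximal genes Fabp1 and Gip were not: Fabp1 was highest in labelled knockout 1, and Gip was lowest in labelled knockout 2. Fgf15, a gene of the distal intestine, had 1975 in wild type 3, 390 in labelled knockout 1 and at most 13 in the others. Fabp6, also distal, had 1947 in labelled knockout 1 and at most 4 in the others, wild type 3 included. Slc51a (5310 and 7367) and Slc51b (368 and 528), also distal, were highest in these 2 libraries. The distal genes Slc10a2 and Enpp3 did not set these 2 libraries apart. These 6 proximal and 6 distal genes, all that were listed, are named for their values. Labelled knockout 1 also had fewer counts on long genes: across 14165 genes, the Spearman correlation of a library's log2 deviation with exon length was -0.48 there and between -0.02 and 0.26 in the other 5. Pancreatic genes summed to 37937 in wild type 1 and to between 269 and 7830 in the others. The labels do not say that replicates were separate animals, so p-values measure only the spread between these 6 libraries.

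Of the 36 vessel genes, 9 fell at an adjusted p under 0.05 (limma over 14686 genes tested, Benjamini-Hochberg adjusted) and none rose. That is 25.0% of them, where 3.94% of all genes tested were called lower and 4.85% higher (8.79% in either direction). The log2 fold change was negative for 35 of 36, against 50.9% of all genes tested, and for 34 of 36 once each library's trend with exon length was removed. Its median was -0.68, against -0.01 over all genes tested. In 19 of the 36 genes (52.8%) every wild type library lay above every labelled knockout library, against 17.8% of all genes tested. All 36 genes had at least 10 normalised counts in all 6 libraries, so none entered the test through 1 group alone.

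The count of 9 depended on which libraries were used. No vessel gene was called after dropping wild type 1, 2 or 3 or labelled knockout 3, and the lowest limma adjusted p was then 0.0955, 0.143, 0.0598 and 0.0846. Few genes of any kind were called lower in these fits (0.0545%, 0.00681%, 0.94% and 0.0613% of all genes tested). In these 4 fits 14, 15, 21 and 16 vessel genes had an unadjusted p under 0.05, of 36, where 21.6%, 18.4%, 25.3% and 23.3% of all genes tested had one. The count was 3 without labelled knockout 2 and 23 without labelled knockout 1, against 2.02% and 9.81% of all genes called lower. Over these 6 smaller fits the median log2 fold change of the 36 genes ran from -0.73 to -0.58. With sex as a covariate none was called by limma (lowest adjusted p 0.0509; 21 of 36 had an unadjusted p under 0.05, against 30.0% of all genes tested), where 1.21% of all genes were called lower, with a median of -0.62. Within the males the labelled knockout value was lower than the wild type mean for 30 of 36 genes. Within the females the labelled knockout mean was lower for 31 of 36, against 50.5% and 48.6% of all genes tested. Each of these comparisons rested on 1 library in 1 group, labelled knockout 1 in the males and wild type 3 in the females. These are the 2 libraries with low Onecut2, so within each sex genotype and that difference cannot be told apart. Without wild type 3 and labelled knockout 1, the libraries with low Onecut2, 29 of 36 fell, against 12.4% of all genes. In that fit both wild type libraries were male and both labelled knockout libraries female. Genotype and sex cannot be told apart there.

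**Figure D1:**
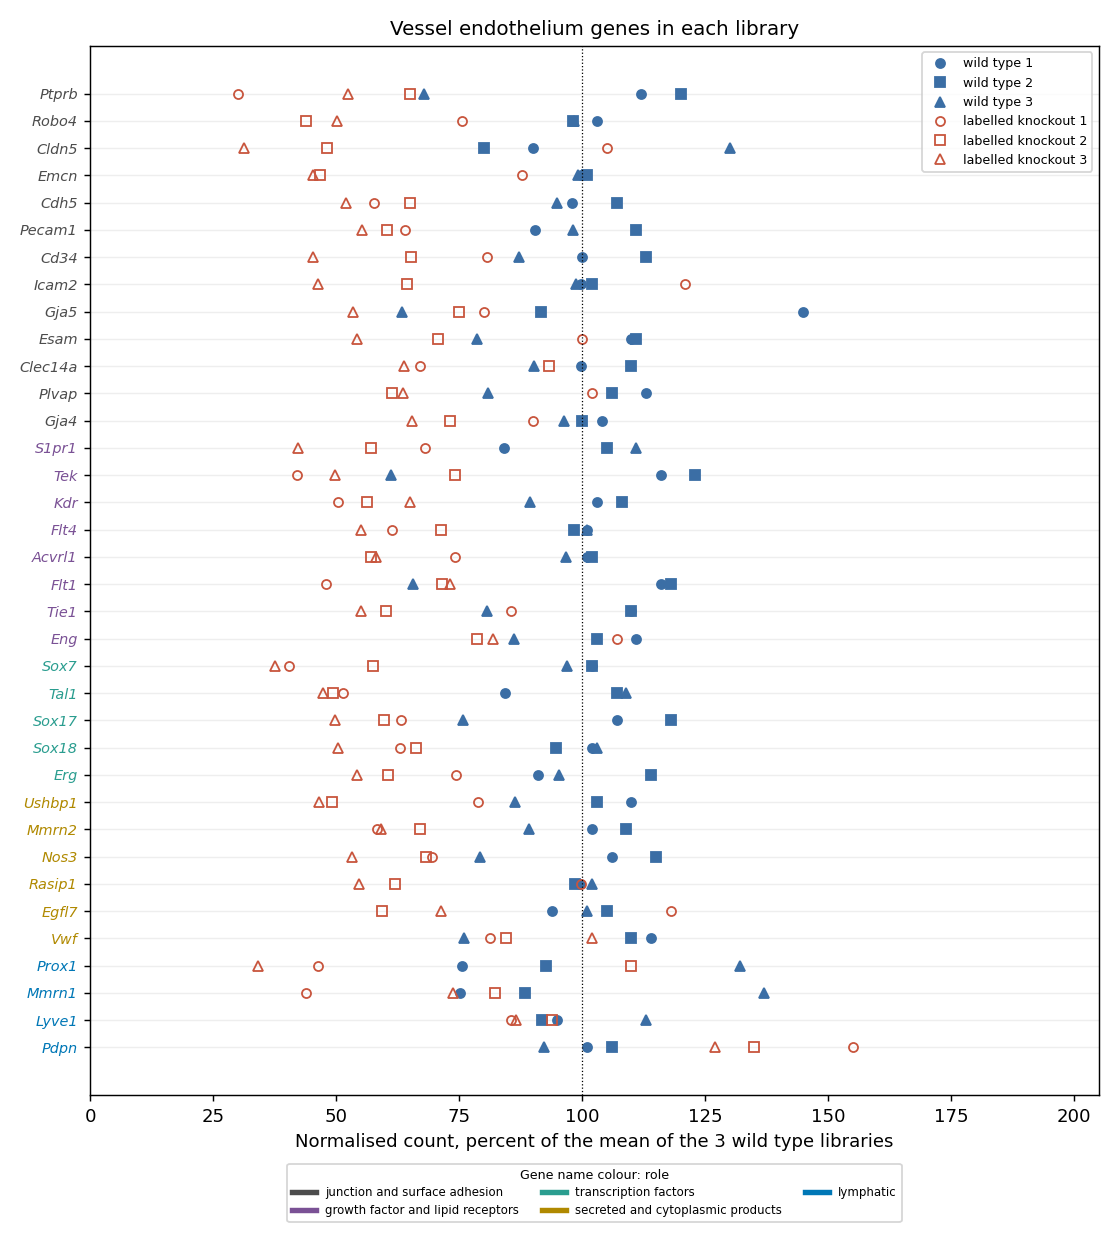
Normalised count of each of the 36 vessel genes in each library, as a percentage of the mean of the 3 wild type libraries (x axis); filled blue symbols are wild type 1 to 3, open red symbols labelled knockout 1 to 3, and the colour of the gene name gives its role. In 19 genes all red symbols lie left of all blue ones, and in Pdpn all lie to the right.

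Seen by library, the median vessel gene stood at 101%, 106% and 95.1% of its wild type mean in wild type 1 to 3. It stood at 74.2%, 65.0% and 54.3% in labelled knockout 1 to 3. Labelled knockout 3 was the lowest of the 6 libraries for 22 genes, labelled knockout 1 for 7, labelled knockout 2 for 5 and wild type 3 for 2, Vwf and Pdpn. Normalised counts are relative values. In bulk tissue, fewer endothelial cells, less RNA per endothelial cell and a larger share of RNA from other cells cannot be told apart.

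Among the junction and adhesion genes, 2 of 13 fell (15.4%, against 3.94% of all genes tested), both of them general markers of endothelium. All 13 fold changes were negative, against 50.9% of all genes tested. Cdh5, which encodes VE-cadherin (chromosome 8, 104101625 to 104144511, plus strand, GRCm38), had 1164, 1273 and 1127 normalised counts (wild type) against 686, 772 and 616 (labelled knockout). The groups were well apart, with means of 1188 ± 75.9 and 691 ± 78.1 (SD over 3 libraries). The difference came to -0.78 ± 0.14 (SE) on the log2 scale (limma adjusted p = 0.0259). Pecam1, which encodes the adhesion molecule CD31 (chromosome 11, 106654217 to 106750628, minus strand), had 1165, 1434 and 1265 and then 823, 777 and 711. The 3 labelled knockout values were close to each other and all below the lowest wild type value. The log2 fold change of Pecam1 was -0.74 ± 0.14 (limma adjusted p = 0.0290).

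The other 11 junction and adhesion genes did not pass, and labelled knockout 1 stood apart in many of them. Plvap encodes the protein that forms the diaphragms of fenestrated capillaries and had the highest level per length of the 36, at 1820 normalised counts per kb of exon in wild type. It had 4077, 3837 and 2918 normalised counts (wild type) against 3688, 2212 and 2294 (labelled knockout). The groups overlapped through labelled knockout 1, and the log2 fold change was -0.43 ± 0.24 (limma adjusted p = 0.273). Cldn5, the tight junction claudin of endothelium, had 290, 258 and 419 and then 338, 155 and 101. Again labelled knockout 1 was inside the wild type range while the other 2 were below it (log2 fold change -0.85 ± 0.43). Emcn, which encodes the capillary and venous sialomucin endomucin, had 209, 212 and 208 in wild type and 184, 98 and 95 in the libraries labelled knockout. Wild type values were nearly equal there, and the drop was small in labelled knockout 1 and over 2-fold in the other 2 (limma adjusted p = 0.103 over all 3). Without labelled knockout 1, Plvap, Cldn5 and Emcn fell, at limma log2 fold changes of -0.67, -1.33 and -1.11.

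Ptprb, the gene of the phosphatase VE-PTP that damps TIE2 signalling, showed the reverse pattern. It had 1232, 1317 and 744 (wild type) against 328, 713 and 574 (labelled knockout). Labelled knockout 1 was the lowest library, and labelled knockout 2 came close to wild type 3. The log2 fold change, -1.05 ± 0.34, was the second most negative of the 36 and did not pass (limma adjusted p = 0.0933). Robo4, a guidance receptor that steadies vessels, had 645, 613 and 614 and then 472, 274 and 313, a difference of -0.86 ± 0.21 (log2) just short of the threshold (limma adjusted p = 0.0536). The connexin genes of arteries, Gja4 and Gja5, had log2 fold changes of -0.40 ± 0.17 and -0.46 ± 0.34. The remaining genes of this group, Cd34, Icam2, Esam and Clec14a, lay between -0.68 and -0.44.

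Of the 8 receptor genes, 3 fell (37.5%, against 3.94% of all genes tested). All 8 fold changes were negative, against 50.9% of all genes tested. Kdr, which encodes the main VEGF receptor of blood vessels, VEGFR2 (chromosome 5, 75932827 to 75978458, minus strand), had 1074, 1132 and 937 (wild type) against 527, 590 and 681 (labelled knockout). The labelled knockout mean was 57.2% of the wild type mean, with no overlap (log2 fold change -0.81 ± 0.15, limma adjusted p = 0.0292). Flt4, which encodes VEGFR3, the VEGF-C receptor of lymphatic and growing vessels (chromosome 11, 49609263 to 49652739, plus strand), had 535, 523 and 537 and then 326, 379 and 293. Its wild type values differed by little, and its log2 fold change was -0.68 ± 0.14 (limma adjusted p = 0.0381, and 0.0581 with the length trend removed). Acvrl1, the gene of the BMP9 receptor ALK1 (chromosome 15, 101128522 to 101145336, plus strand), had 742, 750 and 711 and then 544, 419 and 426. This too was a fall without overlap, by 0.67 on the log2 scale (SE 0.15, limma adjusted p = 0.0420). The call of Acvrl1 ended without a filter on low genes or without the intensity trend, where its adjusted p was 0.05 and 0.0548.

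Eng encodes endoglin, the co-receptor of ALK1. Its values were 1728, 1600 and 1339 (wild type) against 1666, 1224 and 1272 (labelled knockout). The groups overlapped, and the 95% confidence interval of its log2 fold change ran from -0.59 to 0.25. Tek, which encodes the angiopoietin receptor TIE2, had 346, 366 and 182 and then 125, 221 and 148. Wild type 3 was low and within the labelled knockout range, and the log2 fold change of -0.83 ± 0.33 did not pass (limma adjusted p = 0.147). Flt1, which encodes the VEGF decoy receptor VEGFR1, likewise had a low wild type 3, at 292 against 519 and 526 in the other wild type libraries and between 213 and 326 in those labelled knockout. Tie1, the partner receptor of TIE2, and S1pr1, which encodes a sphingosine phosphate receptor that stabilises vessels, had log2 fold changes of -0.59 ± 0.22 and -0.86 ± 0.22. The limma adjusted p of S1pr1 was 0.0580.

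Of the 5 transcription factor genes, 3 fell (60.0%, against 3.94% of all genes tested). In all 5 every wild type library lay above every labelled knockout library, against 17.8% of all genes tested; no difference between the roles was tested. Sox7 (chromosome 14, 63943673 to 63950732, plus strand) had 108, 108 and 103 (wild type) against 43, 61 and 40 (labelled knockout). This was the most negative log2 fold change of the 36, -1.16 ± 0.21 (limma adjusted p = 0.0273), and Sox7 was the only vessel gene called that differed by at least 2-fold. Sox18 (chromosome 2, 181669836 to 181671640, minus strand), which acts in lymphatic and arterial development, had 571, 528 and 576 and then 352, 369 and 281. Its log2 fold change was -0.75 ± 0.15 (limma adjusted p = 0.0350). The third gene of the family, Sox17, had 204, 225 and 145 and then 121, 114 and 95. The groups were apart, but wild type 3 was low and the log2 fold change of -0.78 ± 0.21 did not pass (limma adjusted p = 0.0669).

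Tal1, which encodes a factor shared by endothelium and blood cell precursors (chromosome 4, 115056426 to 115071755, plus strand), had 41, 52 and 53 in wild type and 25, 24 and 23 in the libraries labelled knockout. The 3 labelled knockout values were nearly equal, and the log2 difference was -0.98 ± 0.22 (limma adjusted p = 0.0420, and 0.0606 with no filter on low genes). Erg, an ETS factor that drives endothelial genes including Cdh5, had 191, 239 and 200 and then 156, 127 and 114. It did not overlap either but missed the threshold, at -0.67 ± 0.18 (limma adjusted p = 0.0655).

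The promoters of 21 of the 36 genes were matched in the RefSeq (GRCm38.p6) promoter set used. Of the 9 genes that fell, only Kdr, Flt4 and Tal1 were among these 21, and their promoters are shown. Each run is the 250 bases before the RefSeq start site, which for Flt4 lies inside the GENCODE gene given above, 5′ to 3′ on the strand of the gene, at chr5:75978456-75978705 (minus strand), chr11:49609429-49609678 (plus strand) and chr4:115056176-115056425 (plus strand). Both strands were searched for strings bound by 3 kinds of factor, and capitals mark a match. The ETS strings were CCGGAAG and, as the second, CAGGAAG. The SOX strings were ACAATG and, as the second, ACAAAG. The GATA string was AGATAA.
Kdr: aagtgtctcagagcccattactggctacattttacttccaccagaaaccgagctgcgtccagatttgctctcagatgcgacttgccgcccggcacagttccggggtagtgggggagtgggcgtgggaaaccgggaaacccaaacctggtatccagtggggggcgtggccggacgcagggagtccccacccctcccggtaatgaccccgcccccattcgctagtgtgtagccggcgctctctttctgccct
Flt4: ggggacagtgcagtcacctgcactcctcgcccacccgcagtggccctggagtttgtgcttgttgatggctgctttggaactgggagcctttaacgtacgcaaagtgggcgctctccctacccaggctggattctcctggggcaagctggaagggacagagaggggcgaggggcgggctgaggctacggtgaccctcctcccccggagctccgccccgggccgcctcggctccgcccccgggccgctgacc
Tal1: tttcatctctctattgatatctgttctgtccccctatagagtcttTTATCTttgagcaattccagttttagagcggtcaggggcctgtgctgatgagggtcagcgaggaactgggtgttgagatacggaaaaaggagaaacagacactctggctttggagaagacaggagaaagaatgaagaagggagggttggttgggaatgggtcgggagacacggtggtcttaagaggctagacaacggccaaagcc
The Tal1 stretch held 1 match, to the GATA letters on the strand opposite to the one shown, and the other 2 stretches held none. Over the 21 matched promoters, 6 held an ETS string (28.6%, against 5585 of 32851 RefSeq promoter stretches of the same length). All 6, among them Robo4, Emcn and Cd34, held CAGGAAG (10.8% of all stretches) and none held CCGGAAG (6.91% of all). SOX strings were in 6 of the 21 (28.6%, against 25.2%): ACAATG in 1 (4.76%, against 10.7%) and the second string in 5 (23.8%, against 16.5%). The GATA string was in Tal1 alone (4.76%, against 9.99%). The member shares take 1 promoter per gene, the one nearest the GENCODE start of the gene. The 32851 stretches can hold more than 1 per gene (2 for Tal1), so the shares are over unlike units. These counts describe letters in this window only.

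**Figure D2:**
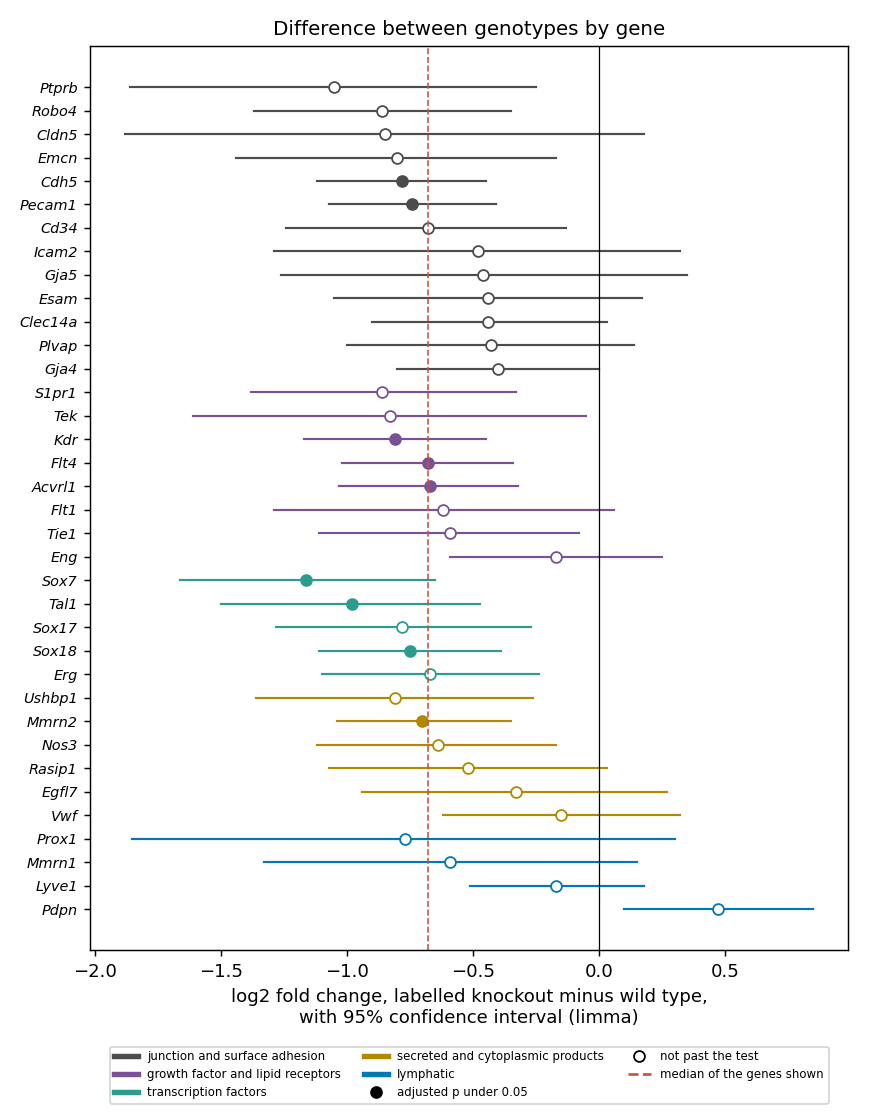
The log2 fold change of each vessel gene, labelled knockout minus wild type (x axis), with its 95% confidence interval from limma; filled circles are the 9 genes at an adjusted p under 0.05, the dashed line is the median of the 36 at -0.68, and colours give the role. Every point except that of Pdpn lies left of 0, and the lymphatic genes are spread most widely.

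Secreted and cytoplasmic products gave 1 fall among 6 (16.7%, against 3.94% of all genes tested). All 6 fold changes were negative as deposited, against 50.9% of all genes tested. Mmrn2, which encodes multimerin 2 of the vessel wall matrix (chromosome 14, 34375465 to 34404287, plus strand), had 445, 476 and 389 (wild type) against 254, 293 and 258 (labelled knockout). The groups did not overlap (log2 fold change -0.70 ± 0.15, limma adjusted p = 0.0370). Vwf, which encodes the clotting factor stored in endothelial granules and platelets, had 1209, 1166 and 804 and then 860, 896 and 1079. It overlapped between the groups, with a log2 fold change of -0.15 ± 0.20 that was 0.14 with the length trend removed. Nos3, the endothelial nitric oxide synthase gene, had 268, 292 and 201 and then 176, 173 and 135, without overlap but short of the threshold (limma adjusted p = 0.0882). Egfl7, a secreted matrix protein gene, had 901, 1007 and 972 and then 1137, 568 and 684, so labelled knockout 1 was the highest of all 6. Rasip1, which acts in vessel lumen formation, and Ushbp1 had log2 fold changes of -0.52 ± 0.23 and -0.81 ± 0.23.

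None of the 4 lymphatic genes passed the test. Of their 4 fold changes 3 were negative (75.0%, against 50.9% of all genes tested), with a median of -0.38. Prox1 had 31, 38 and 54 (wild type) against 19, 45 and 14 (labelled knockout). These low values overlapped and were spread widely, with a confidence interval of the log2 fold change from -1.85 to 0.30. Lyve1, which encodes a hyaluronan receptor of lymphatic capillaries that some macrophages also carry, had 286, 277 and 341 and then 258, 283 and 261. Its log2 fold change was -0.17 ± 0.15, with an interval from -0.51 to 0.18. Mmrn1, which encodes multimerin 1 of lymphatic endothelium and platelets, had 223, 262 and 405 and then 130, 244 and 219, with overlap through labelled knockout 2. Pdpn, the podoplanin gene, which fibroblasts and mesothelium also express, had 121, 127 and 110 and then 185, 161 and 152. It was the only vessel gene with all labelled knockout libraries above all wild type libraries, which 19.8% of all genes tested also had, and it did not pass (log2 fold change 0.47 ± 0.16, limma adjusted p = 0.104). Whether the lymphatic genes differ in response from the other 32 was not tested.

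Over the 36 genes, exon length often went with the level in labelled knockout 1. Over the 12 shortest of the 36 genes (1416 to 3466 bases of exon), the median gene stood at 94.9% of its wild type mean in labelled knockout 1, 63.2% in labelled knockout 2 and 54.3% in labelled knockout 3. Over the 12 longest (5409 to 16064 bases) it stood at 62.6%, 68.2% and 54.2%. The pattern was not uniform: among the 12 shortest, Sox7 stood at 40.4% and Sox18 at 63.0% in labelled knockout 1, and among the 12 longest Emcn stood at 87.8% and Vwf at 81.2%. The other 2 labelled knockout libraries were low over both ranges. Across the 36 genes, the Spearman correlation of a library's log2 deviation with exon length was -0.53 in labelled knockout 1 and between -0.10 and 0.38 in the others. With the trend removed in each library, a setting chosen after seeing the data, 11 genes fell, 8 of them among the 9, and Gja4, S1pr1 and Erg were added. Over all genes 5.34% were then called lower. The median of the 36 was -0.64, against 0.00 for all genes.

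**Figure D3:**
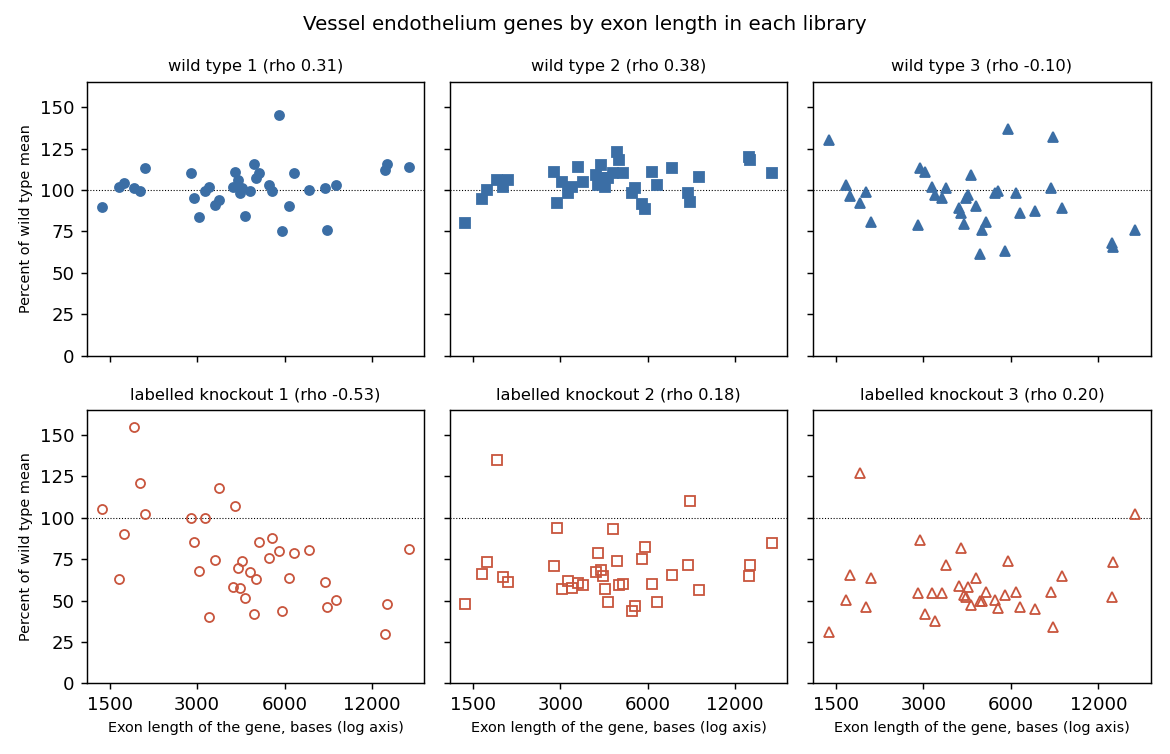
Each panel is 1 library and each point 1 of the 36 vessel genes, with its exon length in bases (x axis, log scale) and its normalised count as a percentage of the wild type mean (y axis); rho is the Spearman correlation of the library's log2 deviation with length over the 36 genes. In labelled knockout 1 the points slope down from short to long genes (rho -0.53), and in labelled knockout 2 and 3 they lie low over the whole range.

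A list of 38 ligands, receptors and targets of vessel signalling outside the 36 was read beside them. Of these 36 were tested; 7 fell (19.4%, against 3.94% of all genes tested), 1 rose and 28 were not called. Negative fold changes made up 80.6%, against 50.9% of all genes, and the median was -0.59, against -0.01. Smad6, an inhibitor that ALK1 signalling induces, had 1000, 1350 and 962 (wild type) against 574, 485 and 436 (labelled knockout), a log2 fold change of -1.14 ± 0.19. Hey1, a Notch target of arterial endothelium, fell by 0.97 on the log2 scale (SE 0.17), and Aplnr, the apelin receptor gene, by 0.88 (SE 0.19). The VEGF co-receptor genes Nrp1 and Nrp2, named after their values were seen, had -0.96 ± 0.22 and -0.85 ± 0.19. Sphk1, which encodes a kinase that makes the S1PR1 ligand, was the 1 that rose, from 176, 114 and 130 to 457, 330 and 401 (2.84-fold, limma adjusted p = 0.0172). Vegfa, the ligand of KDR and the most abundant of these genes, had 5639, 6332 and 3635 and then 2322, 3434 and 2515. All labelled knockout libraries were below all wild type libraries, and the test was not passed (-0.90 ± 0.26, limma adjusted p = 0.0711). Sphk2, the next most abundant by its mean over all 6 libraries, had a log2 fold change of 0.17 ± 0.18. Spns2 and Epas1, which were above Sphk2 in wild type and are named after their values were seen, had -0.78 ± 0.21 and -0.69 ± 0.35 and were not called. The BMP ligand genes Gdf2 and Bmp10, also named for their values, had at most 2 normalised counts in any library and were not tested.

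Of a further list of 40 endothelial genes, 38 were tested; 9 fell (23.7%, against 3.94% of all genes tested), none rose and 29 were not called. Negative fold changes made up 81.6%, against 50.9%, with a median of -0.59. Adgrf5, an adhesion receptor of capillaries, had 938, 1004 and 811 (wild type) against 415, 506 and 424 (labelled knockout). Ets1, an ETS factor also found in lymphocytes, had 759, 814 and 768 and then 379, 476 and 384. Their log2 fold changes were -1.03 ± 0.15 and -0.92 ± 0.14, and those of Arhgef15 and Tspan18 were -0.85 ± 0.13 and -0.80 ± 0.13. Fli1, an ETS factor of endothelium and blood cells named after its values were seen, had -1.02 ± 0.18. The most abundant of the list, Stab1 and Sox13, had -0.23 ± 0.13 and 0.18 ± 0.22. Selp, the P-selectin gene of venules and platelets, named after its values were seen, was higher in every labelled knockout library, with 14, 28 and 10 and then 45, 46 and 32, and did not pass (limma adjusted p = 0.0843). Ccl21a, a chemokine gene of lymphatic vessels also named for its values, was listed at 0 in all 6 libraries.

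Lists of other cell types were read beside the vessel genes, and their part in the result was not tested. Over all genes tested, 3.94% were called lower and 4.85% higher, and 50.9% had a negative fold change. Pericyte genes, which mark the cells around capillaries, summed to between 6073 and 7384 in wild type and between 5073 and 5797 in the libraries labelled knockout. Of 9 tested, 1 fell (Cspg4, log2 fold change -0.78 ± 0.17), and the median was -0.37. None of 8 smooth muscle genes and none of 8 fibroblast genes was called, with medians of -0.34 and -0.13 and sums that overlapped between the groups (37671 to 53465 and 29175 to 41273 for muscle, 48245 to 67222 and 35023 to 53189 for fibroblasts). Their most abundant members, Myh11 and Col3a1, had -0.72 ± 0.34 and -0.51 ± 0.28. Negative fold changes made up 88.9% of the pericyte genes tested, 87.5% of the smooth muscle genes and 75.0% of the fibroblast genes. A mostly negative direction was thus not particular to the endothelial lists. Of 7 epithelial genes 1 rose (Krt8, 1.28 ± 0.20), all 7 fold changes were positive with a median of 0.44, and sums ran from 77297 to 97283 and from 129050 to 145630. Every labelled knockout sum of the epithelial genes was above every wild type sum.

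Cells that share genes with endothelium gave mixed values. Of 8 macrophage genes 1 fell (12.5%, against 3.94% of all genes tested), Adgre1 (-0.96 ± 0.22). The sums overlapped (4245 to 6728 and 3243 to 7673). Of the 6 platelet genes 4 were tested and 1 rose, Gp1bb (3.12 ± 0.53), where 4.85% of all genes tested were called higher. In all 4 every labelled knockout library lay above every wild type library, against 19.8% of all genes tested, with a median of 1.09. Sums were between 173 and 285 in wild type and between 583 and 1632 in the libraries labelled knockout. Gp1bb alone had 1333, 387 and 531 in the latter. Of the 6 mesothelial genes 5 were tested and 1 rose, Krt19, which epithelium also makes, while Msln and, named for its values, Upk3b had -0.03 ± 0.42 and -0.04 ± 0.41. None of the genes tested was called for blood stem and mast cells (3 tested), enteroendocrine cells (6), enteric glia and neurons (6), fat (1), pancreas (5), or proximal (6) and distal intestine (4). Of the fat cell markers Adipoq and Lep, also named for their values, were at 0 in all 6 libraries. Cidec, the only fat gene tested, had 3172, 3251 and 3637 (wild type) against 4188, 3748 and 4239 (labelled knockout). Every labelled knockout library was above every wild type library, which 19.8% of all genes tested also had. Its log2 fold change was 0.28 ± 0.13.

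**Figure D4:**
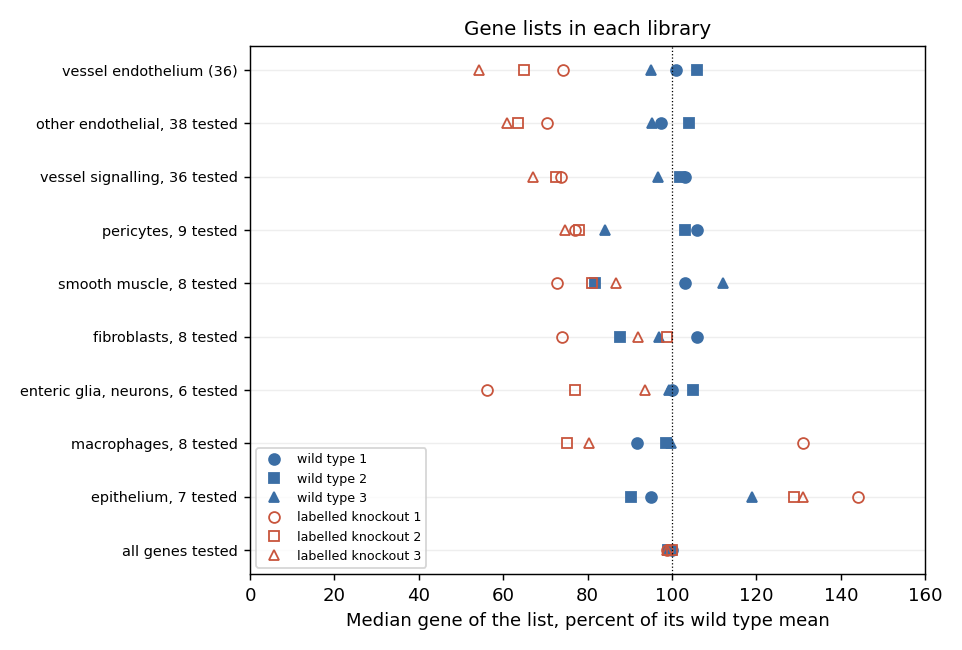
For each gene list, the median over its tested genes of the normalised count as a percentage of the gene's wild type mean (x axis), in each of the 6 libraries (filled blue, wild type; open red, labelled knockout). The 3 endothelial lists have all labelled knockout libraries between 54.3% and 74.2%, below the wild type libraries. Pericyte medians and those of enteric glia and neurons are also lower in every labelled knockout library, fibroblast medians overlap between the groups, and epithelial medians are above 100% in the libraries labelled knockout.

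Levels per length place these genes on 1 scale. In wild type, the mean normalised count per kb of exon ran from 4.89 for Prox1 to 1820 for Plvap, followed by Eng with 384, Sox18 with 345 and Cdh5 with 283. The lowest after Prox1 were Gja5 with 10.4 and Tal1 with 11.1. In the libraries labelled knockout the same measure was 3.10 for Prox1, 1370 for Plvap, 343 for Eng, 206 for Sox18 and 164 for Cdh5.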

How the data were processed

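RNA-seq of whole small intestine gave 1 value per gene and library in 6 libraries, 3 per group. The deposited values are whole numbers, apparently normalised by the authors, treated here as a score and not as raw counts, since they appear to be gene counts scaled per library and rounded. TopHat2 2.1.0, HTSeq 0.6.0 and DESeq2, with the mouse build mm10, are named per the submitters' processing notes, with no order or settings. The raw depth behind each value is unknown, so no counting intervals are given.

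From these values, limma 3.58.1 in R 4.3.3 compared the groups on log2(normalised count + 1), using its trend option and genotype as the only term. A gene entered if 3 or more libraries had 10 or more (14686 of 24452), p-values were Benjamini-Hochberg adjusted over all of them, and the threshold was 0.05. Fold changes are on that log2 scale, which understates those of low genes. The script was tested on simulated data. Exon lengths and coordinates came from GENCODE release M21 (GRCm38), matched for all 36 genes, and promoters from RefSeq.

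Groups came from the labels and sex from Xist and Ddx3y. A further check of the labels is not reported here. The genes and lists were chosen with earlier results of these data known. All 36 genes are named; of each further list, up to 4 called genes by p-value and the 2 most abundant could be named, and others are marked as named for their values. Alternatives were other pseudocounts, filters, scalings, limma settings, thresholds, a replicate block and leaving libraries out. Sex as a covariate and removal of a length trend (lowess per library) were added after seeing the data.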

Additional observations from a re-analysis of the deposited data

How the results depend on the processing

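Of the 36 vessel genes, 9 fell, and the count ranged from 0 to 23 when 1 library was left out, while the count over all genes, 1291, ranged from 48 to 3015. Without wild type 3 and labelled knockout 1 the counts were 29 and 3888, in a fit where genotype and sex cannot be told apart. With sex as a covariate, added after seeing the data, they were 0 and 459. At an adjusted p under 0.1 they were 16 and 2847, and with at least 2-fold also required, 1 and 716. Scaling to equal library totals gave 15 vessel genes; the median log2 fold change was then -0.19 over all genes (-0.01 as deposited) and -0.85 over the vessel genes (-0.68 as deposited). The share of called genes that were higher was 55.2% as deposited, 29.6% with equal totals and 44.5% with upper quartile scaling, and no vessel gene was called higher under any of these 3. The median log2 fold change of the vessel genes lay between -0.85 and -0.58 over all alternatives. The log2 fold change of Vwf reversed to 0.14 with the length trend removed; the cause was not tested. With the replicate number as a block, 0 vessel genes and 64 of all genes were called by limma, and 22 of 36 vessel genes had an unadjusted p under 0.05, against 24.9% of all genes. Same-numbered libraries had correlations of -0.373, 0.302 and -0.161 in their deviations from the group means. Libraries with unlike numbers had between -0.438 and 0.412. The deviations are centred within each group, and sex and Onecut2 also set libraries apart. These correlations therefore cannot decide whether the number pairs libraries. The raw depth is unknown, so what it limits was not assessed.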
